A study of Mus musculus with 45 samples.

Results

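The transcripts of 9 genes that write, remove or read DNA methylation were measured in mouse colonic epithelium under diets that cause or reverse obesity. The genes were chosen by symbol: Dnmt1, Uhrf1, Dnmt3a, Dnmt3b, Tet1, Tet2, Tet3, Tdg and Mbd2, which are 9 of the 24918 entries of the RNA-seq count table. DNA methylation in mammals sits mainly on cytosines followed by guanine (CpG). Dnmt3a and Dnmt3b place it on unmethylated DNA, whereas Dnmt1, guided to newly replicated DNA by Uhrf1, copies it onto the new strand. The Tet enzymes oxidise 5-methylcytosine, Tdg cuts out the oxidised base so that base excision repair can restore a plain cytosine, and Mbd2 binds methylated CpGs and brings the NuRD repressor complex to them. In the colon the epithelium is renewed continuously from dividing crypt cells, so that methylation has to be copied at each division.

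Animals on 3 diets were compared, with 5 male C57BL/6 mice (C57BL/6J in the methods of the study) in each group, all 6 weeks old at the start and kept for 20 weeks. Control mice (LF) ate a low-fat diet with 10% of energy from fat, and obese mice (HF) a high-fat diet with 60%. Formerly obese mice (HFLF) were fed high fat during the first 15 weeks and low fat during the last 5. The epithelium was released from the whole colon with EDTA, so each library is a mixture of crypt and surface cells, and fewer cells of a type and less RNA per cell cannot be told apart. Gene counts summed to between 15230391 and 22762095 per library (15 libraries), most in HFLF replicate 3.

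Epithelial markers were high in every library, with Epcam between 1975 and 2219 CPM (counts per 1000000 counts of the library, after TMM scaling). The leukocyte marker Ptprc was between 9.01 and 24.7 CPM, no smooth muscle marker of 6 passed the filter on low counts, and of 5 adipocyte markers Plin1 and Lep were at 0 counts throughout, while Cidec, at 2.82 to 12.1 CPM, was called higher in HFLF than in LF (log2 fold change 0.93). The summed level of 6 fibroblast markers was 2.34 to 10.9 CPM in LF, 6.78 to 17.4 in HF and 6.02 to 30.7 in HFLF, with the 4 tested ones higher in HF and in HFLF than in LF (median log2 fold changes 0.66 and 1.09) and none called. At an unadjusted edgeR p under 0.05 there were 2 of these 4 between HFLF and LF and 0 otherwise. The summed level of 11 immune cell markers was 22.9 to 40.9 CPM in LF, 31.3 to 61.4 in HF and 26.4 to 52.7 in HFLF, and none of the 7 tested ones was called in any comparison by edgeR or DESeq2 (at an unadjusted edgeR p under 0.05, 1 between HFLF and HF and 0 otherwise). Of 6 colonocyte markers, 4 were called higher in HFLF than in LF and 3 higher in HFLF than in HF. All 4 tuft cell markers were higher in HFLF than in LF, with 2 called. All 6 stem cell markers were lower in HFLF than in LF (median log2 fold change -0.12), with 0 called. The part of these mixtures in the values below was not tested.

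To ask whether the machinery of DNA methylation was expressed differently with obesity or after its reversal, all genes were fitted together with the quasi-likelihood test of edgeR. Calls followed the cutoffs of the study, which are a change of more than 1.2-fold up or down together with p below 0.01 and, after Benjamini-Hochberg adjustment over all genes, below 0.25. Of the 9 genes, 8 passed the filter on low counts and Tdg did not. None of the 8 was called in any of the 3 comparisons, and none had an unadjusted p under 0.05 (0 of 8 each time), which 10.9%, 16.7% and 13.4% of all tested genes had between HF and LF, HFLF and LF, and HFLF and HF. Among all 12961 tested genes, 1.58% were called between HF and LF, 3.72% between HFLF and LF, and 2.65% between HFLF and HF. DESeq2 also called 0 of the 8, and its unadjusted p was under 0.05 for Mbd2 alone, between HF and LF.

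**Figure D1:**
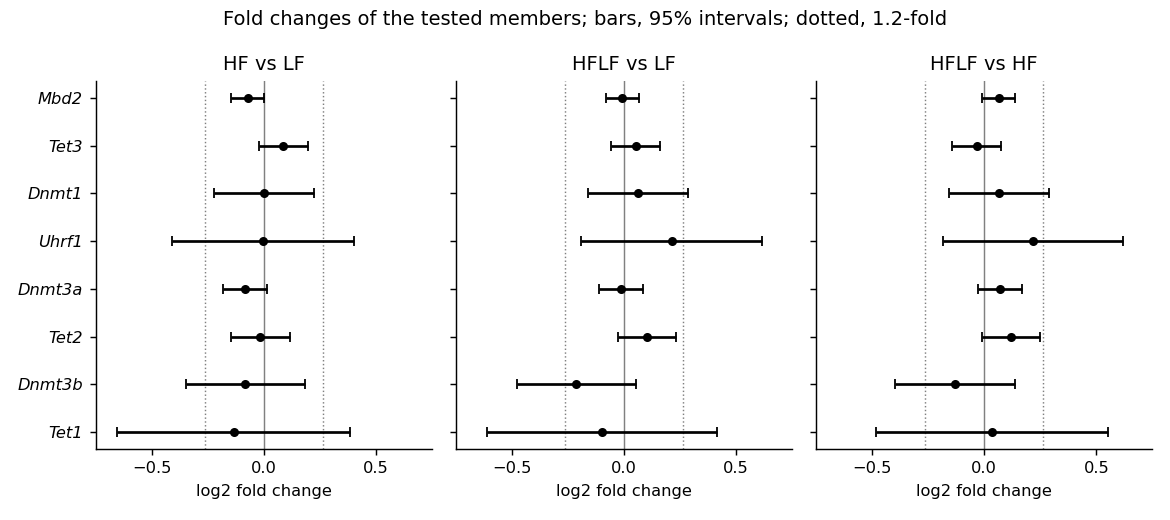
Log2 fold change of each of the 8 tested genes in the 3 comparisons, with its 95% interval from the edgeR fit; the dotted lines mark a 1.2-fold change in either direction. All intervals cross 0, those of Mbd2, Tet3, Dnmt3a and Tet2 stay inside 1.2-fold in each comparison, and those of Tet1 and Uhrf1 extend past it on both sides or on the higher side.

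How large a change the data could still hold differed from gene to gene. The 95% interval lay inside a 1.2-fold change in both directions for 5 of the 8 genes between HF and LF, and for 4 of the 8 in each of the comparisons with HFLF. Mbd2 had the narrowest interval between HFLF and LF, from -0.08 to 0.07 on the log2 scale, and Tet1, with the fewest counts, the widest between HF and LF, from -0.65 to 0.38. The median log2 fold change over the 8 was -0.04 between HF and LF, 0.02 between HFLF and LF and 0.06 between HFLF and HF, beside medians of 0.00 over all tested genes.

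The genes differed far more from one another than between diets. Levels were compared as CPM per kb of exon, over all 15 mice. Mbd2 stood highest at 71.6 ± 2.39 (SD, n = 15), which placed it above 91.5% of the tested genes. Tet3 followed at 15.5 ± 0.90 and Dnmt1 at 13.9 ± 1.79, whose ranges overlapped, and Uhrf1 was at 8.83 ± 2.10 and Dnmt3a at 6.12 ± 0.30. The ranges of Dnmt1 and Uhrf1, and of Uhrf1 and Dnmt3a, overlapped as well, so the order within these pairs did not hold in every pair of mice.

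Tet2 was at 4.39 ± 0.32 CPM per kb, with its highest mouse below the lowest for Dnmt3a. Dnmt3b was at 0.91 ± 0.11, and Tet1 at 0.19 ± 0.05 lay above only 2.06% of the tested genes. Of the DNA methyltransferases the maintenance enzyme was therefore the most abundant transcript, and of the Tet enzymes Tet3, in each of the 15 mice.

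**Figure D2:**
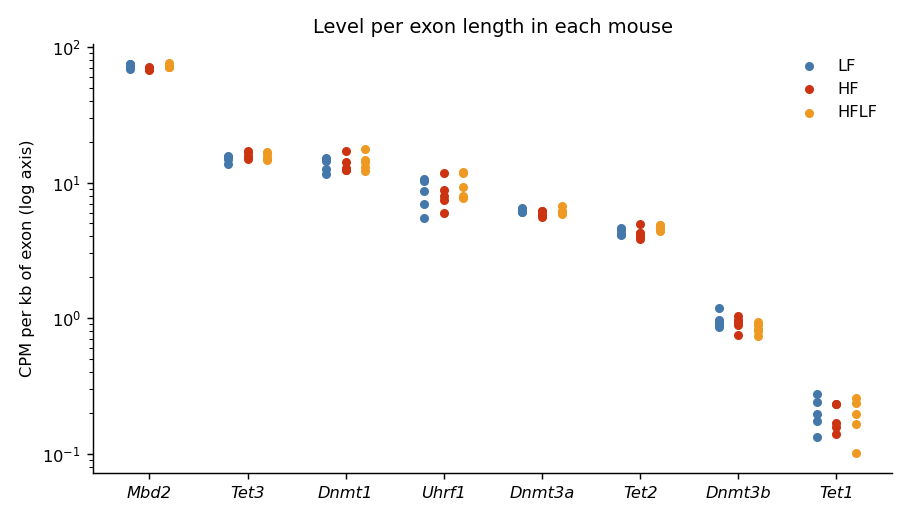
CPM per kb of exon on a log axis for the 8 tested genes, ordered by their mean; each point is 1 mouse, coloured by diet. Mbd2 (67.3 to 75.6) is separated from all others, Tet1 (0.10 to 0.28) lies lowest, and the diets lie close together within each gene.

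Among the maintenance genes, Dnmt1 (Entrez 13433; mm10 chr9:20907206-20959888, minus strand) was at 79.3, 73.7, 94.2, 96.5 and 90.9 CPM in LF replicates 1 to 5. It was at 89.7, 78.3, 107.4, 80.5 and 78.7 CPM in HF replicates 1 to 5, and at 82.4, 76.8, 112.4, 89.6 and 92.5 CPM in HFLF replicates 1 to 5. The groups overlapped fully, and 1 mouse in HF and 1 in HFLF, replicate 3 of each, stood above all LF mice. The group means were 86.9 ± 9.90 CPM in LF, 86.9 ± 12.4 in HF and 90.7 ± 13.6 in HFLF (SD, n = 5). The log2 fold change was 0.00 (95% interval -0.22 to 0.22) between HF and LF and 0.06 (-0.16 to 0.29) between HFLF and LF.

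Uhrf1 (Entrez 18140; mm10 chr17:56303337-56323486, plus strand) encodes the protein that recognises CpGs methylated on a single strand behind the replication fork. It varied more, with 25.3, 19.8, 37.7, 39.0 and 31.6 CPM in LF replicates 1 to 5. The HF mice were at 32.2, 21.8, 43.0, 27.1 and 29.1 CPM and the HFLF mice at 27.8, 29.0, 43.7, 33.8 and 43.0 CPM, in the same order. The groups overlapped, and the highest mouse over the lowest came to 2.20-fold, against 1.12-fold for Mbd2. Means were 30.7 ± 8.14 CPM in LF, 30.6 ± 7.87 in HF and 35.5 ± 7.54 in HFLF (SD, n = 5), and the log2 fold change between HFLF and LF was 0.21 (95% interval -0.19 to 0.62; edgeR adjusted p = 0.615). Without LF replicate 2 it was 0.09, and without HFLF replicate 3 or 5 it was 0.12 or 0.14. Of its exonic windows of 50 bases, 71.9% occurred once in the genome, so some of its reads could not be placed from their own bases alone. Whether their mates placed them was not tested.

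The mice with much Dnmt1 transcript were also those with much Uhrf1, and both moved with genes of DNA replication and cell division. Across the 15 mice, log2 CPM of Dnmt1 and Uhrf1 had a Pearson r of 0.898 (permutation p = 3e-05, adjusted over the 28 pairs of tested genes p = 0.00084) and a Spearman rho of 0.896 (permutation p = 3e-05). As deviations from the group means r was 0.904, and without the 2 mice farthest from the median it was 0.897. This was the only pair of the 28 to pass an adjusted p of 0.05. The correlations between members were not planned in advance.

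Against the mean log2 CPM of 25 proliferation genes, which include Mki67, Top2a and the Mcm helicase subunits, r was 0.913 for Dnmt1 and 0.888 for Uhrf1. For both the permutation p of 1e-05 is the smallest that 100000 resamples can give, and p adjusted over the 8 genes was 4e-05. The Spearman rho was 0.957 for Dnmt1 (permutation p = 1e-05) and 0.879 for Uhrf1 (permutation p = 3e-05). Within groups r was 0.917 and 0.884, and without HFLF replicates 3 and 2, the mice farthest from the median, it was 0.867 and 0.949. For the other 6 genes r ran from -0.389 for Tet3 to 0.244 for Mbd2 and none passed (smallest adjusted p = 0.408). The comparison with the proliferation genes was not planned in advance either. How large a share of all tested genes would pass it was not computed, so the relation is not shown to be particular to these genes. Values of 1 mouse share a library, and Dnmt1 and Uhrf1 also moved with the total count of the library (r = 0.597 and 0.514, permutation p = 0.0157 and 0.0411, adjusted over 8 p = 0.126 and 0.141), which fell to 0.255 and 0.433 without HFLF replicates 3 and 4. Within groups the relation with the total count passed for Dnmt1 (r = 0.660, permutation p = 0.00323, adjusted p = 0.0258) and not for Uhrf1 (r = 0.433, permutation p = 0.0992, adjusted p = 0.294). The levels also went partly by replicate number. Replicate 2 was lowest in each group for Dnmt1 and for the proliferation mean. Replicate 3 was highest for both and for Uhrf1 in HF and HFLF, and replicate 4 in LF. The permutations did not take the number into account, and its part in these relations was not tested.

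**Figure D3:**
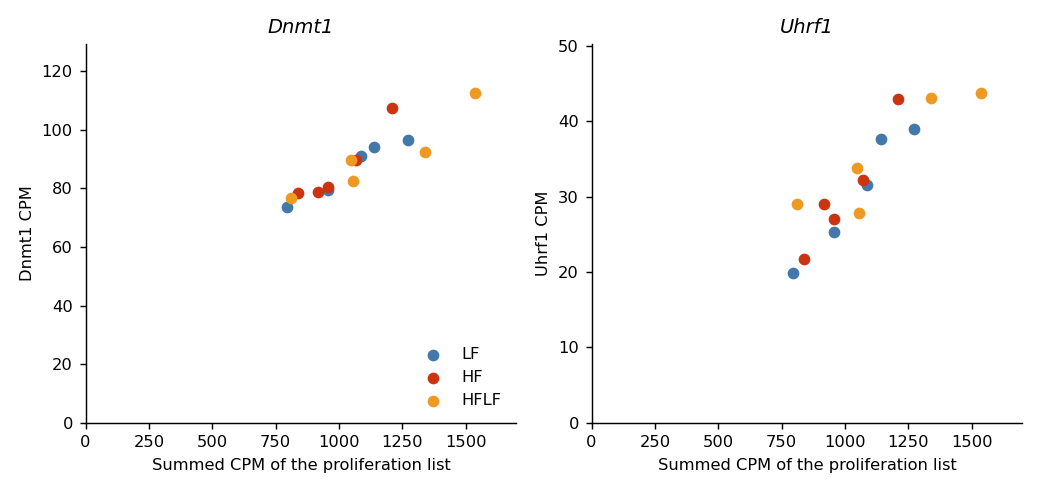
CPM of Dnmt1 (left) and Uhrf1 (right) against the summed CPM of the 25 proliferation genes; each point is 1 mouse, coloured by diet. Mice of the 3 diets lie along the same upward band, from LF replicate 2 (summed level 795.9 CPM) to HFLF replicate 3 (1537 CPM).

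The proliferation genes themselves were not called in any comparison (0 of 25 by edgeR and by DESeq2), and at an unadjusted edgeR p under 0.05 there were 0, 0 and 2 of them in the comparisons of HF with LF, HFLF with LF and HFLF with HF. Their median log2 fold change was -0.07 between HF and LF, 0.14 between HFLF and LF with 24 of 25 higher, and 0.23 between HFLF and HF with 22 of 25 higher. Without HFLF replicate 3 the median between HFLF and LF was 0.00, with 13 of 25 higher, so the tilt rested on that mouse. It was 0.05 without LF replicate 2 and 0.08 without HFLF replicate 5, and between HFLF and HF it was 0.10 without HFLF replicate 3 and 0.36 without HFLF replicate 2. Between HF and LF the median changed sign to 0.01 without LF replicate 4 and to 0.00 without HF replicate 2, and it was -0.15 without LF replicate 2 and -0.16 without HF replicate 3, with 24 of 25 lower in both.

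Dnmt1 and Uhrf1 also had a sequence feature in common. E2F factors, which drive genes of the S phase, bind letters such as TTTCCCGC, TTTGGCGC and TTTCGCGC. These were searched on both strands in the 250 bases before the RefSeq gene starts of GRCm38.p6, the same build as mm10. Mbd2 was not searched. Of the other 8 members only Dnmt1 and Uhrf1 held such a match, each at 1 of its starts. Over the genome 504 of 32851 starts held one (1.53%). That share is per start, whereas Dnmt1, Uhrf1 and Dnmt3a each had more than 1 start searched. It therefore does not give the share of genes with a match. Nor was it matched for CpG content, although the letters found contain CpGs. The 250 bases with the match held 26 CpGs in Dnmt1 and 30 in Uhrf1, within a range of 2 (Dnmt1) to 51 (Tet2) over the member starts searched. The Dnmt1 window lies at chr9:20952825-20952852 on the minus strand and the Uhrf1 window at chr17:56304118-56304145 on the plus strand, both away from the gene starts of the count table. They are shown because they are the only matches among these 8, with the matching letters in capitals, on the reverse strand in Dnmt1.
Dnmt1: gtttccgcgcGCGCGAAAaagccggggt
Uhrf1: ccgagtcgggTTTCGCGCgcccaggcgt
A match is a description of letters and not a measured binding site.

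Of the de novo methyltransferases, Dnmt3a (Entrez 13435; mm10 chr12:3806980-3914443, plus strand) was at 61.2, 63.4, 60.8, 65.1 and 60.6 CPM in LF replicates 1 to 5. It was at 61.4, 57.2, 61.8, 57.7 and 55.3 CPM in HF, and at 60.3, 66.9, 60.7, 58.3 and 61.9 CPM in HFLF. In HF, replicates 2, 4 and 5 lay below every LF mouse and replicates 1 and 3 within the LF range. The log2 fold change between HF and LF was -0.08 (95% interval -0.18 to 0.01; edgeR adjusted p = 0.530), and the mean in HFLF, 61.6 ± 3.21 CPM, was close to the 62.2 ± 1.94 of LF (SD, n = 5).

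Dnmt3b (Entrez 13436; mm10 chr2:153649449-153687730, plus strand) rested on 52 to 82 counts per library. LF replicates 1 to 5 were at 5.11, 4.19, 4.03, 3.69 and 3.92 CPM, HF at 4.47, 3.85, 4.19, 3.24 and 4.02 CPM, and HFLF at 4.02, 3.57, 3.20, 3.45 and 3.85 CPM. The ranges overlapped, with LF replicate 1 alone above 5 CPM. The log2 fold change was -0.21 (95% interval -0.48 to 0.05; edgeR adjusted p = 0.414) between HFLF and LF and -0.08 (-0.35 to 0.18) between HF and LF. Without LF replicate 1 these were -0.14 and 0.00. Dnmt3l, the inactive partner that stimulates both enzymes in germ cells, had 0 counts in each of the 15 libraries.

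**Figure D4:**
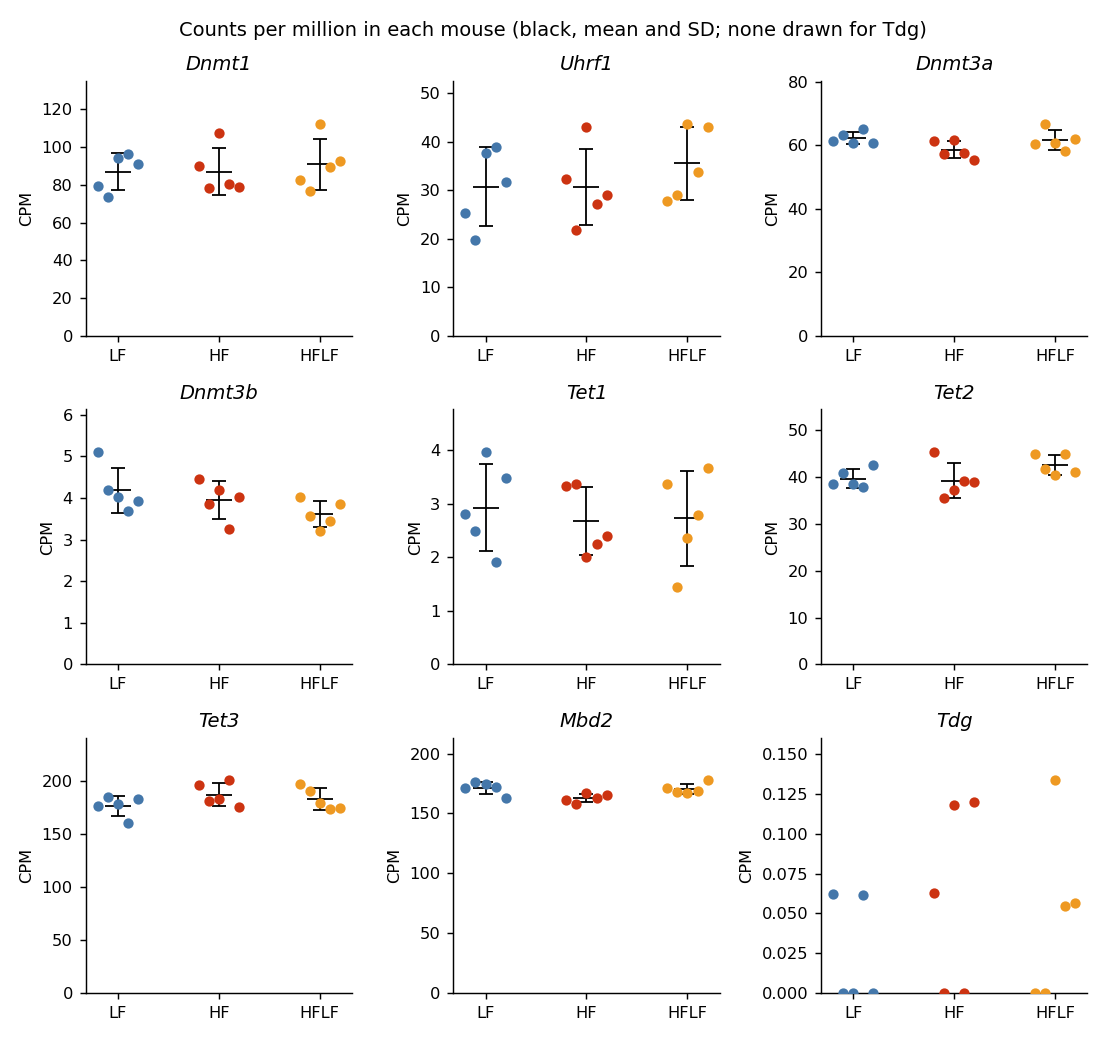
CPM in each mouse for the 9 genes by diet, on axes that start at 0; points are single mice in replicate order, and black marks give the mean and SD (n = 5), which were not drawn for Tdg. The diets overlap in each panel but Mbd2, where HF (158.1 to 166.7) lies just below HFLF (167.1 to 177.6).

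The Tet enzymes were expressed at different levels and none was called in any comparison. Tet3 (Entrez 194388; mm10 chr6:83362374-83441678, minus strand) was at 175.9, 184.6, 177.9, 160.4 and 182.5 CPM in LF replicates 1 to 5, at 196.1, 181.1, 182.9, 200.4 and 175.2 in HF, and at 197.4, 190.3, 178.9, 173.2 and 174.4 in HFLF. In HF, replicates 1 and 4 were above all LF mice and the others among them. The log2 fold change between HF and LF was 0.09 (95% interval -0.02 to 0.20; edgeR adjusted p = 0.567).

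Tet2 (Entrez 214133; mm10 chr3:133463677-133544390, minus strand) was at 38.4, 40.9, 38.6, 37.8 and 42.5 CPM in LF and at 45.3, 35.5, 37.2, 39.0 and 39.0 in HF, replicates 1 to 5. The HFLF mice were at 44.9, 41.6, 40.3, 44.9 and 41.0 CPM. All but 1 of the HF mice, replicate 1, lay below every HFLF mouse. The log2 fold change between HFLF and HF was 0.12 (95% interval -0.01 to 0.25; edgeR adjusted p = 0.430), and without HF replicate 1 it was 0.18, which stays under 1.2-fold and was not called.

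Tet1 (Entrez 52463; mm10 chr10:62804570-62880014, minus strand) had only 23 to 65 counts per library. It was at 2.80, 2.49, 3.97, 1.91 and 3.47 CPM in LF, at 3.33, 3.36, 2.01, 2.25 and 2.40 in HF, and at 3.38, 1.44, 2.36, 2.79 and 3.68 in HFLF. The highest mouse exceeded the lowest 2.75-fold with no order by diet. Between HF and LF the interval ran from 0.636-fold to 1.305-fold, and leaving out 1 library gave log2 fold changes between -0.26 and 0.00.

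Tdg (Entrez 21665; mm10 chr10:82629838-82650494, plus strand) gave almost no counts. LF replicates 1 to 5 held 1, 0, 0, 1 and 0 counts, HF held 1, 0, 2, 0 and 2, and HFLF held 0, 0, 3, 1 and 1, which is 12 counts over all 15 libraries. No library exceeded 3 counts, and no fold change was formed. These counts cannot be read as the level of the gene. The count table holds a further entry on the same strand, Gm9855, that covers 20436 of the 20657 bases of Tdg and is itself at 0 in all libraries, and counters such as HTSeq leave out reads that fall on overlapping entries by default.

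The exons of Tdg are also close to copies elsewhere in the genome, as only 22.2% of their 50-base windows occur once. Matching windows lie at chr7:76243189-76246075, at chr10:42052558-42055457, at chr15:82516323-82519281 and at chr19:33672278-33674032. A coding stretch of 90 bases is shown because a read of 50 bases inside it cannot be assigned from its own bases alone. The stretch is the same in the pseudogenes Tdg-ps2 (chr10:42055085-42055174, minus strand) and Tdg-ps (chr15:82516616-82516705, plus strand), with 0 mismatches to Tdg (chr10:82641321-82641410, plus strand).
Tdg: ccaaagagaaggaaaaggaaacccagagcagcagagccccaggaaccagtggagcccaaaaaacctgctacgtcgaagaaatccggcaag
Whether the overlap or the copies lowered the count was not tested.

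Mbd2 (Entrez 17191; chromosome 18), the reader, varied least. LF replicates 1 to 5 were at 170.9, 175.9, 174.6, 172.4 and 162.7 CPM, and HF at 161.2, 158.1, 166.7, 162.9 and 165.6. The HFLF mice were at 171.1, 167.7, 167.1, 168.5 and 177.6 CPM, each above every HF mouse, while LF and HF overlapped through LF replicate 5. The log2 fold change was -0.07 between HF and LF (95% interval -0.15 to 0.00; edgeR adjusted p = 0.465) and 0.06 between HFLF and HF (-0.01 to 0.14; edgeR adjusted p = 0.445). Mbd2 between HFLF and HF was the only case in which 2 groups of any of the 8 genes did not overlap, beside 3.38% of all tested genes in that comparison, 2.47% between HF and LF and 3.62% between HFLF and LF. For HF against LF the interval ran from 0.904-fold to 1.001-fold.

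The wider pathway was followed with 115 further genes in 6 lists: partners of de novo and maintenance methylation, methyl-CpG readers with NuRD subunits, base excision and deamination, the methyl donor cycle, Tet partners with 2-oxoglutarate supply, and proliferation. Of these 105 were tested, and 1 was called between HF and LF, 0 between HFLF and LF and 1 between HFLF and HF, shares of 0.952% and less beside the shares of all genes given above. At an unadjusted edgeR p under 0.05 there were 11, 8 and 12 of the 105 genes. Of all 12961 tested genes there were 1407, 2169 and 1731 (10.9%, 16.7% and 13.4%). DESeq2 called 1, 2 and 1 of the pathway genes.

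The gene called between HF and LF was Idh2, the mitochondrial isocitrate dehydrogenase that yields 2-oxoglutarate, the co-substrate of the Tet enzymes. It was at 162.7 ± 11.2 CPM in LF, 133.9 ± 5.03 in HF and 158.9 ± 20.5 in HFLF (SD, n = 5). It fell in HF by 0.28 on the log2 scale (SE 0.07; edgeR adjusted p = 0.139). The call was lost without LF replicate 2 (adjusted p = 0.287) or HF replicate 3, 4 or 5 (adjusted p = 0.299, 0.264 and 0.329), and without LF replicate 4 the log2 fold change of -0.24 was under 1.2-fold. Of the 17 tested genes of its list, 14 were lower in HF than in LF, with a median of -0.06, but no other was called.

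The gene called between HFLF and HF was Ahcyl2, a relative of the enzyme that clears S-adenosylhomocysteine. It was at 920.6 ± 87.9 CPM in HF and 1154 ± 163 in HFLF and rose by 0.33 on the log2 scale (SE 0.11; edgeR adjusted p = 0.185). The call was lost without HF replicate 1, 2, 3 or 5 or HFLF replicate 2, 3 or 5 (edgeR adjusted p from 0.199 to 0.425), and with the GC trend removed (log2 fold change 0.31, adjusted p = 0.266), but not with the replicate block and the GC trend removed together (0.31, adjusted p = 0.207).

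The genes with the smallest p in the other lists were not called by edgeR. Between HF and LF these were Uhrf2, a relative of Uhrf1 (log2 fold change 0.09), Chd3, a NuRD helicase (0.25), Gadd45b, a stress-induced gene linked to demethylation (0.36), Pemt, which uses S-adenosylmethionine to make phosphatidylcholine (-0.34), and Tk1, thymidine kinase (-0.25). Between HFLF and LF they were Ehmt2, a histone H3 lysine methyltransferase (-0.17), Apobec2 (-0.70), Hdac1, a NuRD deacetylase (0.17), Slc23a2, an ascorbate transporter (0.17), Ahcyl2 (0.30) and Bub1, a spindle checkpoint kinase (0.35). Between HFLF and HF they were Ehmt2 (-0.19), Mbd3, a NuRD subunit (-0.17), Apobec3 (-0.16), Idh2 (0.25) and Bub1 (0.46). Apobec2 and Ahcyl2 were the 2 genes that DESeq2 called between HFLF and LF. Apobec2 lay at 2.35 ± 0.47 CPM in LF and 1.44 ± 0.35 in HFLF (SD, n = 5; edgeR adjusted p = 0.145). Hdac1 counts are uncertain, since 28.2% of its exonic 50-base windows are unique.

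The genes whose pattern over the 15 mice was most like each member were then listed, out of 11035 tested genes with a mean of at least 50 counts. For Dnmt1 these were Pole (r = 0.969), Atad5 (0.967) and Fanca (0.955), and for Uhrf1 they were Atad2 (0.988), Mcm5 (0.975) and Mcm3 (0.971). The likeness of the other genes was lower. Tet2 was most like Ikbke (0.888), Hnrnpa1 (0.836) and Phkg2 (0.834), and Tet3 like Dusp11 (0.861), Rprd2 (0.849) and Crebbp (0.841).

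Dnmt3b was nearest to Slc50a1 (0.846), Zfyve21 (0.840) and Spsb4 (0.815), and Dnmt3a to Tsen15 (0.815), Sfmbt1 (0.794) and Gid4 (0.743). Tet1 was nearest to Ern1 (0.783), Agbl5 (0.782) and Cc2d2a (0.770), and Mbd2 to Tmem25 (0.810), Dusp4 (0.791) and Acad8 (0.784). These are the highest of many values of r and are given as a description.

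Whether methylation itself followed the level of the enzymes was examined with bisulfite PCR sequencing of 233 CpGs in 23 amplicons, none of which lies within 50 kb of a member. The mean methylation level over the CpGs was 63.73%, 62.3%, 62.7%, 63.9% and 64.6% in LF replicates 1 to 5, 63.5%, 63.6%, 62.6%, 62.5% and 63.8% in HF, and 64.5%, 63.0%, 63.2%, 63.7% and 63.8% in HFLF. The groups overlapped. HF differed from LF by -0.257 percentage points (exact permutation p = 0.563, two-sided), HFLF from LF by 0.201 (exact permutation p = 0.683) and HFLF from HF by 0.458 (exact permutation p = 0.246), with all 3 at p = 0.683 after Benjamini-Hochberg adjustment of the exact permutation p-values. With the median over CpGs in place of the mean, HF differed from LF by 0.818 points (exact permutation p = 0.0317). HFLF differed from LF by 1.07 (exact permutation p = 0.0397) and from HF by 0.254 (exact permutation p = 0.5397). With the mean of the amplicon means, HF differed from LF by -0.0237 points (exact permutation p = 0.8968). HFLF then differed from LF by 0.1936 (exact permutation p = 0.5476) and from HF by 0.2172 (exact permutation p = 0.3333). The p-values of these other summaries were not adjusted. The direction for HF against LF depended on the summary.

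No correlation of a member's level with the mean amplicon methylation passed the test over the 15 mice, matched by group and number. That mean ran only from 62.35% (LF replicate 2) to 64.57% (LF replicate 5). With 15 mice a weak relation could be missed, and the 23 amplicons do not speak for methylation elsewhere. Pearson's r ran from -0.211 for Tet3 to 0.391 for Tet1 (permutation p = 0.454 and 0.150), and the smallest p adjusted over the 8 genes was 0.745. Spearman's rho for these was -0.414 and 0.364 (permutation p = 0.126 and 0.182), and without the 2 mice farthest from the median r was 0.012 and 0.363. The labels do not state that the same number is the same mouse in both assays.

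Finally, the differentially methylated regions (DMRs) that the authors called between HF and LF by whole-genome bisulfite sequencing were placed at the genes. A DMR lay in the gene or within 10 kb for 4 of the 9, namely Dnmt3a, Dnmt3b, Tet1 and Tet2, and all of these DMRs were inside the gene. Of all tested genes 20.6% had a DMR at this distance and 12.3% one in the gene body, and of tested genes at least 20 kb long, as all 9 are, 25.9% had one within 10 kb. The 4 genes with a DMR are longer than this floor, at 38282 (Dnmt3b) to 107464 bases (Dnmt3a). No share was computed for genes of such length, nor for the bodies of long genes, so an excess over other genes cannot be read from these counts. The list gives a direction but no value per mouse, so no error was set.

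Dnmt3a held 2 DMRs, both hypomethylated in HF. One, at chr12:3825939-3825958, was intronic in curated transcripts and exonic in predicted ones, and the other, at chr12:3908019-3908033, was in the UTR. Dnmt3b held a hypermethylated one in an intron, Tet1 a hypermethylated one in an intron (chr10:62844235-62844260), and Tet2 a hypomethylated one in an intron (chr3:133480402-133480414). Of these, 3 intronic ones are shown from GRCm38.p6, plus strand, with the DMR in capitals, since each spans only 2 CpGs.
Dnmt3a, chr12:3825934-3825963: tgacaCGCCCAGTTTGGGAGTGGCGagaat
Tet1, chr10:62844175-62844320: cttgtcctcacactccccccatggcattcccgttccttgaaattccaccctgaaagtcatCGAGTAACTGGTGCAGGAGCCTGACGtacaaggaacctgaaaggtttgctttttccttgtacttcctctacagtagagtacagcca
Tet2, chr3:133480342-133480474: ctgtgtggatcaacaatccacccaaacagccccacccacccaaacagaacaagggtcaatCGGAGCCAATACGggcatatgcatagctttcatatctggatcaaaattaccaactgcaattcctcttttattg
The transcripts of Dnmt3a, Dnmt3b, Tet1 and Tet2 differed between HF and LF by -0.08, -0.08, -0.13 and -0.02 on the log2 scale, none of them called. Counted from the gene starts of the count table, the nearest of these DMRs was 18968 bases inside Dnmt3a.

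**Figure D5:**
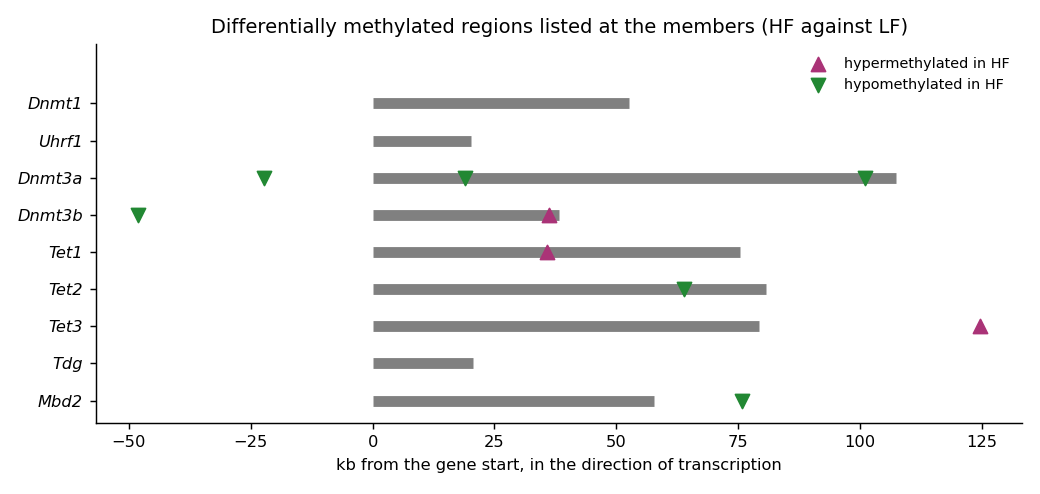
Positions of DMRs between HF and LF at the 9 genes, in kb from the gene start in the direction of transcription; grey bars are the genes, upward triangles regions hypermethylated in HF and downward triangles hypomethylated ones. 5 DMRs lie inside Dnmt3a, Dnmt3b, Tet1 and Tet2, 4 more lie outside within 50 kb of Dnmt3a, Dnmt3b, Tet3 and Mbd2, and none lies at Dnmt1, Uhrf1 or Tdg.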

How the data were processed

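The authors mapped stranded paired-end mRNA reads to mm10 with TopHat2 2.0.4 and deposited raw counts per gene from HTSeq. The annotation release and strand setting are not given in the sources used here, so overlapping entries are uncertain. For bisulfite PCR sequencing the authors deposited the methylated fraction per CpG, without read depth, and 20 repeated entries were counted once. The DMR list holds positions and directions. The authors' DESeq2 tables (fold changes and p-values) were not used.

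Counts were fitted in R 4.3.3 with edgeR 4.0.16 (filterByExpr, TMM, all 15 libraries, group as the only term), and intervals come from the quasi-likelihood standard error. On simulated counts the fit called 153 of 200 changed genes, with 30 false calls. How often it would call a change of the size estimated for a member was not tested. Between HF and LF the standard errors of Uhrf1 and Tet1 were 0.19 and 0.25 on the log2 scale. The median over all tested genes was 0.08. Alternatives were DESeq2 1.42.0, other scalings, filters, a replicate block, a GC correction and leaving out each library. The members and lists were chosen with earlier results of these data known. Named genes were all members, called genes of the pathway lists, the smallest p of each list, and the 3 most alike genes. Correlations were adjusted over the 8 tested members, since Tdg was not tested. The edgeR p-values set a difference in means against the spread between these mice, estimated in part over all genes. Those of correlations and of amplicon means come from permutations over the mice. Sequences and exon lengths are from RefSeq GRCm38.p6. The sequences of 2 of the 5 DMRs inside members are not reported here.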

Additional observations from a re-analysis of the deposited data

How the results depend on the processing

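No member was called under any of the alternatives run, and 420 of the 456 alternative fold changes kept their direction. The 36 that changed it were all within 0.0982 of 0 on the log2 scale. For Dnmt1 between HF and LF (0.0001) the value was -0.0001 with DESeq2 and with its size factors, -0.0026 with upper-quartile scaling, -0.0077 without a filter on low counts, -0.0008 with only the 2 groups and -0.0025 with the replicate block. For Uhrf1 between HF and LF it was 0.0026 with the replicate block, 0.0081 with the GC trend removed and 0.0152 with both. Mbd2 between HFLF and LF was at 0.0175 with the GC trend removed, with or without the block, and Tet1 between HFLF and HF at -0.0136 with both. An unadjusted p under 0.05 arose only for Mbd2 and Tet2. For Mbd2 between HF and LF it was 0.034 with DESeq2 and, by edgeR, 0.0476 with upper-quartile scaling. Without LF replicate 5 or HF replicate 3 the edgeR p was 0.025 or 0.0479. Between HFLF and HF the edgeR p was 0.0398 for Mbd2 with the GC trend removed and 0.00505 for Tet2 without HF replicate 1.

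Leaving out 1 library gave ranges of -0.0887 to 0.0404 (Dnmt1), -0.1587 to 0.0982 (Uhrf1) and -0.0749 to 0.0195 (Tet2) between HF and LF. Between HFLF and LF they were -0.0275 to 0.1175 (Dnmt1), -0.0458 to 0.0058 (Dnmt3a), -0.2282 to 0.0533 (Tet1) and -0.024 to 0.0018 (Mbd2), and between HFLF and HF -0.0292 to 0.1529 (Dnmt1) and -0.0937 to 0.1888 (Tet1). With the direction kept, Uhrf1 moved by more than 1.5 times between HFLF and HF, to 0.115, 0.3715, 0.1248 and 0.1387 without HF replicates 2 and 3 and HFLF replicates 3 and 5, and Dnmt3b moved to -0.0812 without HF replicate 1.

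Pathway genes called numbered 0 between HF and LF and 0 between HFLF and HF once the fold cutoff was dropped and an adjusted p below 0.05 required. Between HFLF and LF, where 0 were called, there were 2 with DESeq2 and with no filter on low counts, and 1 with upper-quartile scaling, at least 10 counts in every library or only the 2 groups. Leaving out 1 library gave 0 to 3 between HF and LF, 0 to 2 between HFLF and LF and 0 to 4 between HFLF and HF. Same-numbered mice deviated together in some pairs and not in others (r from -0.231 to 0.333). For replicate 2, r was 0.197, 0.22 and 0.163 in the 3 comparisons, each above the highest r with another number (0.155, 0.175 and 0.14). For replicate 1 it was -0.14, -0.181 and -0.033. The labels do not say whether a number marks mice handled together. Between HFLF and LF the unadjusted edgeR p of Uhrf1 was 0.0814 with the replicate block and 0.282 without. Between HFLF and HF it was 0.0843 and 0.273. With the block 1, 2 and 2 pathway genes were called between HF and LF, HFLF and LF, and HFLF and HF. With the GC trend also removed there were 1, 1 and 3.

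Mean amplicon methylation ranged from -0.5317 to 0.0226 points between HF and LF, from -0.0743 to 0.4801 between HFLF and LF and from 0.2449 to 0.6112 between HFLF and HF when 1 mouse was left out. The medians over CpGs gave 0.818 and 1.072 points against LF for HF and HFLF, and the means of amplicon means -0.0237 and 0.1936. The cause of these changes was not tested. DMRs lay in the body of 4 members and within 50 kb of 6. The share of all tested genes with a DMR within 50 kb is not given, so the 6 cannot be set beside it. Tet1 and Dnmt3b rest on the fewest counts of the tested members.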
